A study of Mus musculus with 6 samples.

Results

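Cytochrome P450 family 4 was followed in mouse liver after an adenoviral vector had been used to overexpress TFEB, a transcription factor known for its action on lysosomal and autophagy genes. The family was defined by symbol, as every gene whose name begins with Cyp4 and a letter and that has a probe set annotated to it alone. This gave 10 genes and 12 probe sets, out of 12393 genes and 20380 probe sets with 1 symbol. They were 3 Cyp4a genes (Cyp4a12a, Cyp4a14 and Cyp4a31), 5 Cyp4f genes (Cyp4f13, Cyp4f14, Cyp4f15, Cyp4f16 and Cyp4f18), Cyp4b1 and Cyp4v3. Cyp4a10 shares its only probe set with Cyp4a31, so that probe set is described under both names and assigned to neither. A further probe set is shared by Cyp4f37 and Cyp4f16. RefSeq lists 20 protein-coding genes of the family in its GRCm38.p6 annotation, and those without a probe set of 1 symbol entered no test per gene.

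The first group was 3 livers of mice given the TFEB vector, and the second was 3 livers of mice that were not injected. All 6 mice were wild type, of C57 background and 1 month old, and each liver had 1 array. The labels give neither the promoter that drives the transgene nor the sex or feeding state of the mice, and no group analysed here received a vector without TFEB. Effects of injecting, of the virus and of TFEB therefore cannot be told apart. The values are log2 levels per probe set after RMA, a method that summarises the probes of a set and equalises the arrays, so an increase of 1 is a doubling of signal.

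Family 4 enzymes add a hydroxyl group at or near the last carbon of a fatty acid chain, the omega end. The product is oxidised to a dicarboxylic acid by alcohol and aldehyde dehydrogenases and shortened in peroxisomes. In rodent liver several Cyp4a genes are textbook targets of PPAR-alpha, the nuclear receptor that senses fatty acids, whereas Cyp4f enzymes are known for hydroxylating leukotrienes and other eicosanoids, which ends their signal.

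The Cyp4f genes that fell lie together on chromosome 17 in GRCm38.p6, on both strands, with Cyp4f16 further along the same cluster. The 120 bases before the start site of these genes are shown because 3 of them fell and the fourth rose, and because a CCAAT box, a common promoter element, stands in each. Positions are counted from the start site, with -1 as the last base before it. Capitals mark the motif, which reads ATTGG where CCAAT lies on the opposite strand, and sequences are from RefSeq. The windows are chr17:32947362-32947481 on the minus strand for Cyp4f13, chr17:32917330-32917449 on the minus strand for Cyp4f14 (1 of 4 start sites in the table), chr17:32685539-32685658 on the plus strand for Cyp4f15 and chr17:32536437-32536556 on the plus strand for Cyp4f16.
Cyp4f13: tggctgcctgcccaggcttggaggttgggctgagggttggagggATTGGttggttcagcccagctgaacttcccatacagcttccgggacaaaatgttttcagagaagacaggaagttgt
Cyp4f14: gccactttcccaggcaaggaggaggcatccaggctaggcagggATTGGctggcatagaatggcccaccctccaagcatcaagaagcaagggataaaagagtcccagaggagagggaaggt
Cyp4f15: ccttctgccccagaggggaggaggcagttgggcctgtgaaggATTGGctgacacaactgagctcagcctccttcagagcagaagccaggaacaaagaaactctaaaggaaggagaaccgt
Cyp4f16: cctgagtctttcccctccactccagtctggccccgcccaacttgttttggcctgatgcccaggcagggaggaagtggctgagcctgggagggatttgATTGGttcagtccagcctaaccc
In the stretches shown the motif begins at -76 in Cyp4f13, at -77 in Cyp4f14, at -78 in Cyp4f15 and at -23 in Cyp4f16. In the windows of the other start sites of Cyp4f14 a match begins at -64, at -50 and, on the other strand, at -24, so the position depends on the start site chosen. Whether the start site of Cyp4f16 corresponds to those of the other genes was not tested. Aligned end to end with free end gaps, the stretches of Cyp4f14 and Cyp4f15 were 66.1% identical over 127 columns, those of Cyp4f13 and Cyp4f14 60.6% over 132 and those of Cyp4f13 and Cyp4f15 59.7% over 129. Cyp4f16 matched Cyp4f13 at 76.3% over 76 columns, Cyp4f14 at 64.9% over 74 and Cyp4f15 at 60.5% over 86. Unrelated stretches were not aligned for comparison, so these percentages have no baseline and describe only the letters matched. Cyp4f18, on chromosome 8, also has CCAAT matches in its window, at -113 and -48. CCAAT, searched on both strands, is present in 37.4% of the 32851 promoter windows of 300 bases, and a match is a description of the letters and not of a bound factor.

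Promoter windows were found for 7 of the 10 genes, namely Cyp4b1, Cyp4f13, Cyp4f14, Cyp4f15, Cyp4f16, Cyp4f18 and Cyp4v3. Cyp4a12a, Cyp4a14 and Cyp4a31 had no window, so no Cyp4a promoter was searched for any motif. CACGTG, the core of the E-box and of the site that TFEB is known to bind, was searched on both strands together with AGGTCA, the core unit that PPAR-alpha and other nuclear receptors bind as a repeat, and the TATA box TATAAA. Of these motifs, CACGTG occurred in Cyp4v3 alone among the 7 genes, at -171, and the letters AGGTCA and TATAAA were in none of their windows. CACGTG is present in 7.15% of all windows, AGGTCA in 16.3% and TATAAA in 13.6%. The stretch around the Cyp4v3 match, chr8:45333304-45333363 on the minus strand, is given with the motif in capitals.
Cyp4v3: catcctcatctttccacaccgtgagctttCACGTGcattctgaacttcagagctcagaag

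The Cyp4a genes that passed were higher in injected livers, and most Cyp4f genes that passed were lower. Of the family's 10 genes 7 passed limma's test at an adjusted p under 0.05, with 3 higher and 4 lower in injected livers, where 28.1% of all genes passed, 14.2% higher and 13.9% lower. Cyp4a14, Cyp4a31 and Cyp4f16 rose, and Cyp4f13, Cyp4f14, Cyp4f15 and Cyp4v3 fell. In the same 7 genes the groups did not overlap, 3 with injected livers higher and 4 with them lower. Groups did not overlap in 46.2% of all genes, 20.1% higher and 26.1% lower. The median difference, injected minus not-injected, was 0.96 over the 3 Cyp4a genes and -0.57 over the 5 Cyp4f genes, beside -0.049 over all genes. With 3 genes the Cyp4a median is the value of Cyp4a31, which lies low on the arrays. With genes under the median level dropped, which leaves out Cyp4a31, Cyp4f16 and Cyp4f18, the medians were 1.89 for Cyp4a and -0.79 for Cyp4f. By array, the median of the Cyp4a genes relative to their not-injected mean was 1.00, 0.68 and 1.21 in injected livers, against 0.36, -0.21 and -0.15 in not-injected livers, which again is the profile of Cyp4a31. That of the Cyp4f genes was -0.47, -0.48 and -0.74 in injected livers, against 0.04, -0.0039 and 0.02 in not-injected livers. These medians describe genes that were chosen with earlier results known and were not tested.

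**Figure D1:**
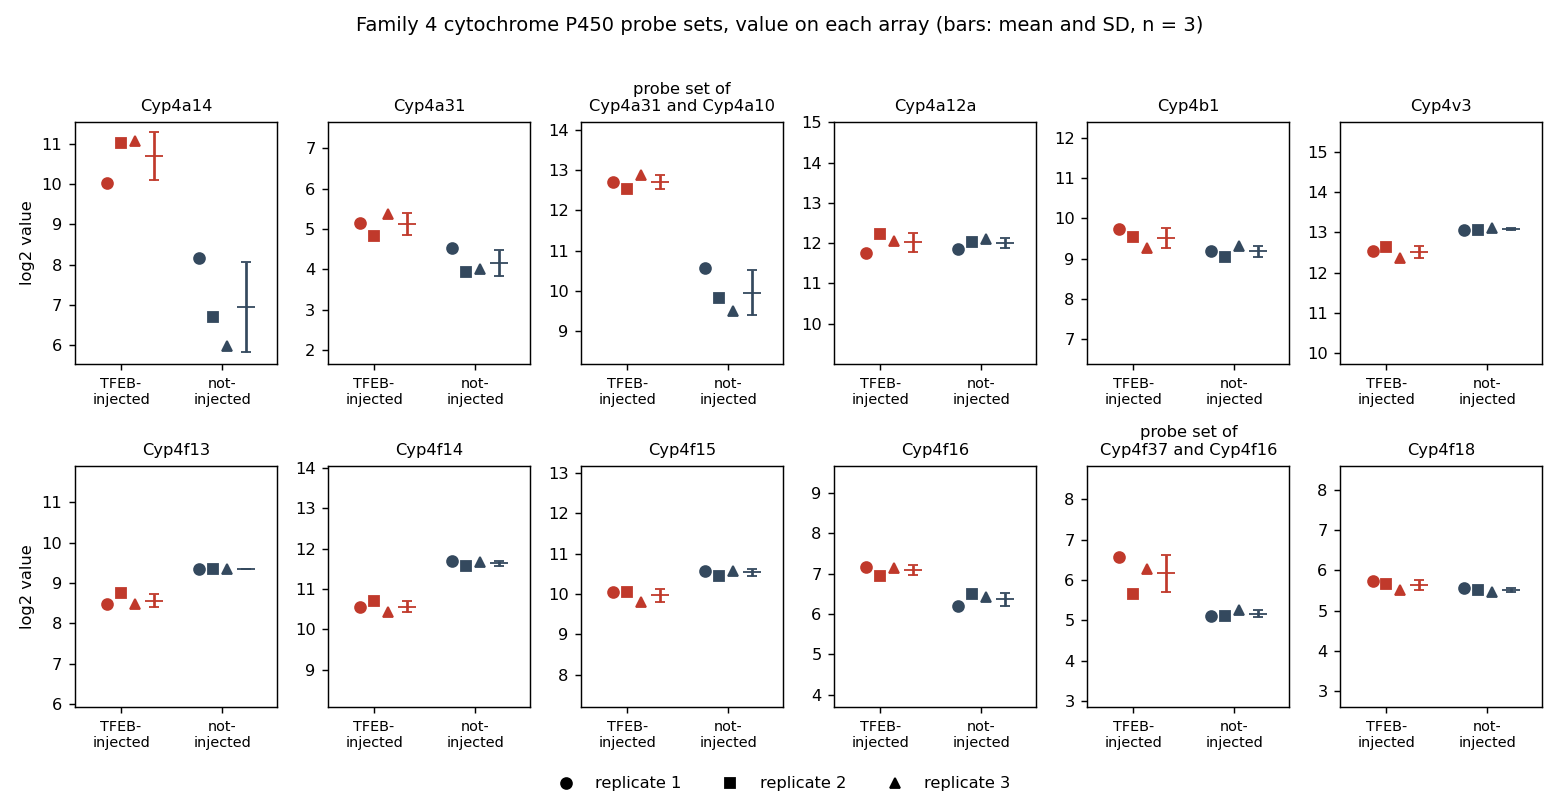
Log2 value on each array for the 10 genes and the 2 shared probe sets, TFEB-injected on the left and not-injected on the right of each panel, with mean and SD (n = 3) beside the points. Every panel spans 6 log2 units, so vertical distances can be compared between panels. Cyp4a14 and the probe set of Cyp4a31 and Cyp4a10 show the widest gaps, with injected livers higher, and Cyp4f13, Cyp4f14, Cyp4f15 and Cyp4v3 show injected livers lower on every array.

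Cyp4a14, an inducible fatty acid omega-hydroxylase, had the largest difference of the family. It read 10.02, 11.02 and 11.08 in injected livers, against 8.17, 6.70 and 5.99 in not-injected livers. The groups were far apart, and the not-injected livers differed among themselves by more than the injected ones. The difference was 3.75 ± 0.53 (SE) on the log2 scale, or 13.5-fold (limma adjusted p = 0.00273), which placed it 19 among 12393 genes ordered from the largest rise. Not-injected replicate 1 was the highest of its group, and without it the difference was 4.36.

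The probe set shared by Cyp4a31 and Cyp4a10, both omega-hydroxylase genes of the same cluster, read 12.71, 12.53 and 12.89 in injected livers, against 10.58, 9.82 and 9.49 in not-injected livers. Injected livers were higher on every array. The difference was 2.74 ± 0.25, or 6.70-fold, in a limma fit of all 22626 non-control probe sets that was added after the values had been seen (adjusted p = 0.000509), where 25% of probe sets passed, 12.3% higher and 12.7% lower. Groups did not overlap in 44% of them, 18.1% higher and 25.9% lower. The probe set annotated to Cyp4a31 alone read 5.16, 4.83 and 5.36 in injected livers, against 4.51, 3.94 and 4.01 in not-injected livers. These groups did not overlap either, at a difference of 0.96 ± 0.18 (adjusted p = 0.00845). Both of its means, 5.12 in injected and 4.15 in not-injected livers, were under the smallest lower quartile of the 6 arrays, 5.46. Without detection calls in the files, its fold of 1.95 is not exact.

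Cyp4a12a, an omega-hydroxylase of arachidonic acid that is known to be expressed mainly in males, read 11.77, 12.24 and 12.06 in injected livers, against 11.87, 12.04 and 12.09 in not-injected livers. The groups overlapped. The difference of 0.02 ± 0.13 did not pass (adjusted p = 0.906), and its 95% interval ran from -0.27 to 0.32, which leaves out changes of the size seen in Cyp4a14. Its sign changed with the scaling, to -0.0076 after a second quantile normalisation and to -0.044 after centring. Mouse Cyp4a12b and Cyp4a12a are close copies, as are Cyp4a10, Cyp4a31 and Cyp4a32, and the probe sequences were not used here, so signal from a copy cannot be told apart from the named gene.

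**Figure D2:**
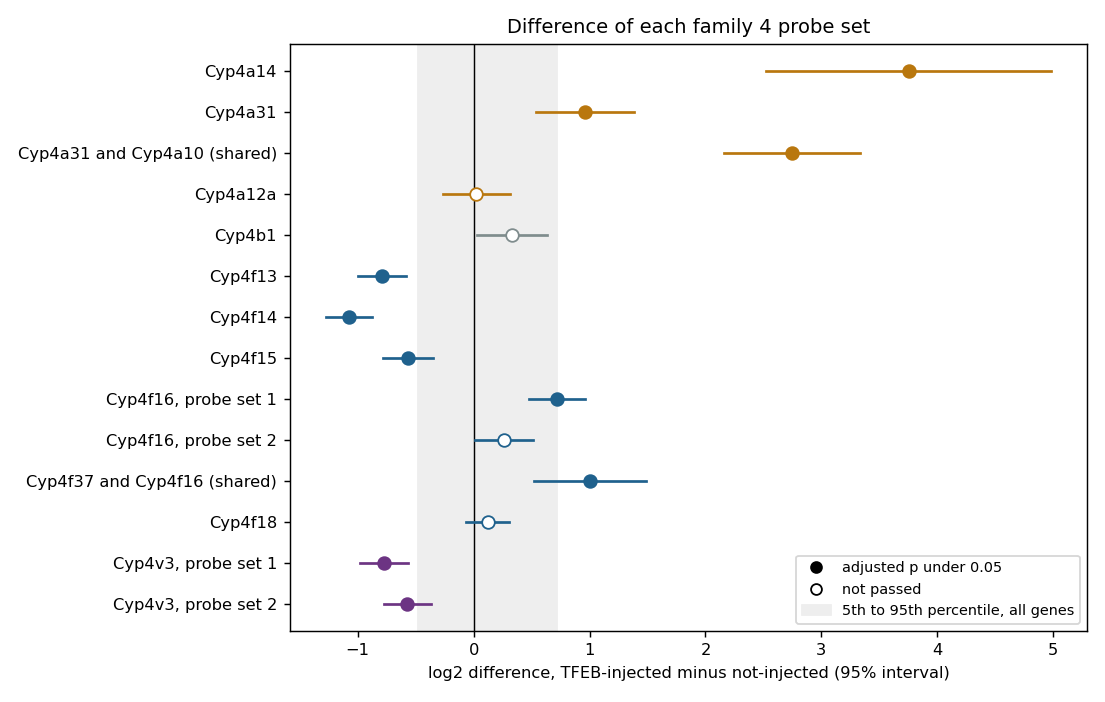
Log2 difference of each of the 12 probe sets with 1 symbol and of the 2 shared ones, TFEB-injected minus not-injected, with 95% intervals from limma. The grey band runs from the 5th to the 95th percentile of all genes, -0.48 to 0.72. Cyp4a14, Cyp4a31 and both shared probe sets lie beyond it on the right, with the brighter Cyp4f16 probe set at its edge, and Cyp4f13, Cyp4f14, Cyp4f15 and both probe sets of Cyp4v3 lie beyond it on the left.

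Among the Cyp4f genes, Cyp4f14, known for hydroxylating leukotriene B4 in mouse liver, had the largest fall. It read 10.56, 10.70 and 10.44 in injected livers, against 11.69, 11.57 and 11.66 in not-injected livers. Every injected liver was lower, and the spread within groups was small. The difference was -1.07 ± 0.08, or 2.11-fold lower (adjusted p = 0.000259). Cyp4f13 read 8.47, 8.75 and 8.48 in injected livers, against 9.36, 9.35 and 9.35 in not-injected livers. The not-injected livers were nearly equal (SD 0.0064), and all injected livers lay below them, by -0.79 ± 0.09 (adjusted p = 0.00106).

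Cyp4f15 read 10.06, 10.05 and 9.79 in injected livers, against 10.58, 10.44 and 10.58 in not-injected livers. The groups did not overlap and differed by -0.57 ± 0.09 (adjusted p = 0.00468). Cyp4f18, known in mouse for hydroxylating leukotriene B4 in neutrophils, read 5.74, 5.67 and 5.51 in injected livers, against 5.56, 5.52 and 5.46 in not-injected livers. Its groups overlapped, at values close to the lower quartile of the arrays, and the difference of 0.12 ± 0.08 did not pass (adjusted p = 0.278). Of 9 measured neutrophil markers 1 rose, S100a8, which encodes a calcium-binding protein (0.74 ± 0.23, adjusted p = 0.047), and 0 fell, where 14.2% of all genes were higher. That call was lost without not-injected replicate 1, 2 or 3, each left out in turn.

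Cyp4f16 was the Cyp4f gene that rose. Its probe set with the higher mean read 7.18, 6.94 and 7.13 in injected livers, against 6.19, 6.49 and 6.42 in not-injected livers. All injected livers were higher, and the difference was 0.72 ± 0.10 (adjusted p = 0.0027), opposite in sign to those of Cyp4f13, Cyp4f14 and Cyp4f15. Its other probe set read 0.26 ± 0.11 and did not pass (adjusted p = 0.114 over all probe sets with 1 symbol, of which 26% passed). The probe set shared by Cyp4f37 and Cyp4f16 read 6.57, 5.66 and 6.27 in injected livers, against 5.11, 5.11 and 5.26 in not-injected livers. It had injected livers higher on every array, by 1.01 ± 0.21 (adjusted p = 0.012 in the added fit). Its not-injected mean of 5.16 was under that same quartile.

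Cyp4v3, whose human counterpart CYP4V2 hydroxylates fatty acids, had concordant probe sets. The brighter read 12.53, 12.65 and 12.35 in injected livers, against 13.06, 13.07 and 13.12 in not-injected livers. Injected livers were lower throughout, by -0.57 ± 0.09 (adjusted p = 0.00331), and the other probe set gave -0.77 ± 0.09 (adjusted p = 0.0012 over all probe sets with 1 symbol). Over the 12 probe sets of the family 8 passed, 3 higher and 5 lower, where 12.9% of all probe sets with 1 symbol passed higher and 13.1% lower. The groups of these 8 did not overlap, against 44.6% of those probe sets, 18.7% higher and 25.9% lower.

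Cyp4b1, known in rodents for activating plant toxins in the lung, read 9.73, 9.54 and 9.25 in injected livers, against 9.18, 9.04 and 9.32 in not-injected livers. The groups overlapped through injected replicate 3, and the difference of 0.33 ± 0.13 did not pass (adjusted p = 0.101). Without that liver it was 0.46 and passed (adjusted p = 0.0346).

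The spike-in controls, bacterial and phage RNA that is added to every sample, moved with the groups. Injected minus not-injected, they had a median difference of -0.32 over 18 hybridisation controls and -0.44 over 24 poly-A controls, and individual controls ran from -0.57 to -0.06. The falls of Cyp4f14, Cyp4f13 and the other probe set of Cyp4v3 were larger than that of any control. Those of Cyp4f15 and the brighter probe set of Cyp4v3 lay at the lower end of the controls' range, at -0.5666 and -0.5723 against -0.5729. Smaller falls of other genes given below also lay within that range, among them Rxra (-0.32), Abcd3 (-0.50), Reln (-0.38) and Aldh9a1 (-0.19). The part of labelling or hybridisation in all these falls was not tested. Across probe sets, which are not independent, arrays correlated at 0.992 to 0.997 among injected livers, 0.997 to 0.998 among not-injected livers and 0.974 to 0.988 between the groups.

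**Figure D3:**
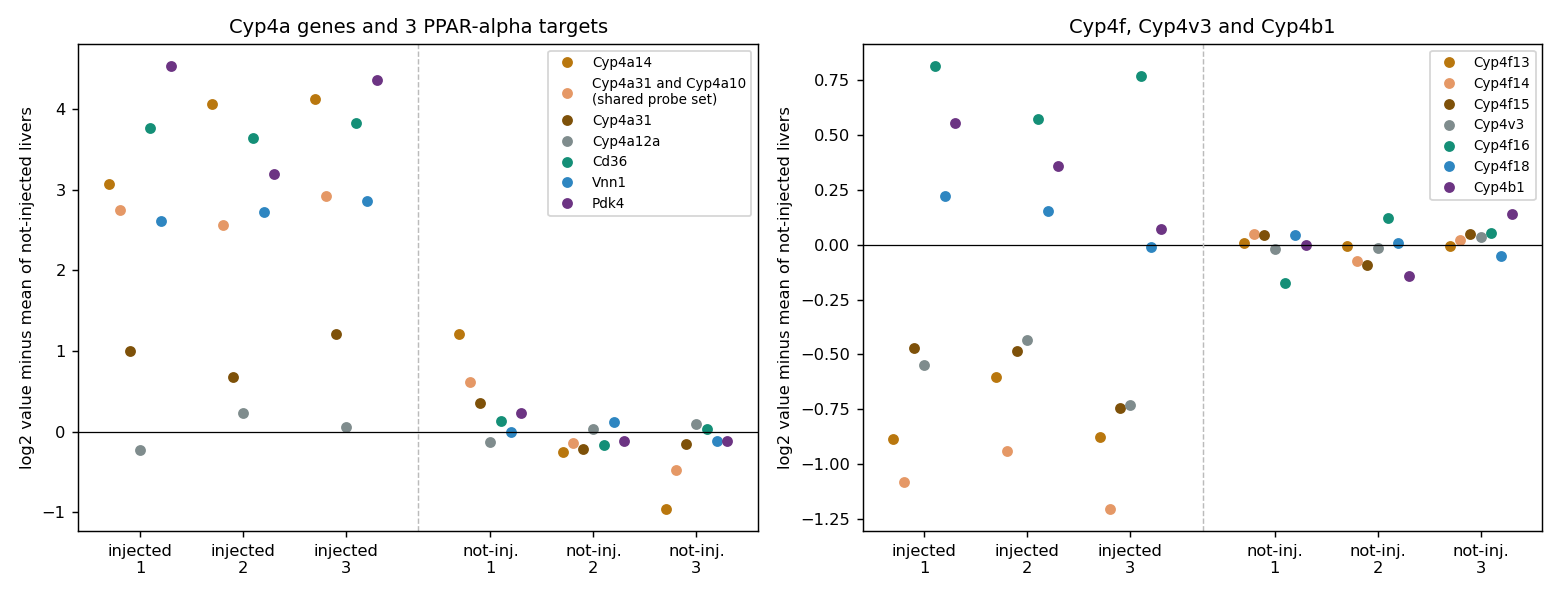
Log2 value minus the mean of the not-injected livers, for each of the 3 injected and 3 not-injected arrays. On the left are the Cyp4a genes, the probe set of Cyp4a31 and Cyp4a10 and 3 textbook PPAR-alpha targets (Cd36, Vnn1 and Pdk4). These 3 are among the 12 of 28 measured targets that rose, while 2 fell, G0s2 among them, and 14 did not pass. On the right are Cyp4f, Cyp4v3 and Cyp4b1 on a narrower axis. In not-injected replicate 1 Cyp4a14, Cyp4a31 and the shared probe set lie above zero, and Cyp4f16 is the Cyp4f gene with injected livers clear above the others.

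Other textbook targets of PPAR-alpha moved as follows. Of 28 measured genes of this list 12 rose, 2 fell and 14 did not pass, with a median difference of 0.34 and 8 to 16 higher over the alternatives, where 14.2% of all genes were higher and 13.9% lower. The fatty acid transporter Cd36 rose by 3.74 ± 0.09 (adjusted p = 3.1e-06), the pantetheinase Vnn1 by 2.73 ± 0.09 and Pdk4, a kinase that inhibits pyruvate dehydrogenase, by 4.03 ± 0.32. G0s2, an inhibitor of triglyceride lipase, fell by 1.74 ± 0.13. Some classical targets did not pass. Acot1, a cytosolic acyl-CoA thioesterase, read 8.52, 8.30 and 9.46 in injected livers, against 9.31, 8.73 and 8.45 in not-injected livers, and its difference of -0.07 ± 0.33 did not pass (adjusted p = 0.891). Ehhadh, the bifunctional enzyme of peroxisomal beta-oxidation, read 12.22, 11.69 and 12.44 in injected livers, against 11.88, 11.77 and 11.75 in not-injected livers, and did not pass either (0.32 ± 0.18, adjusted p = 0.214). Acot1 and Ehhadh were singled out after their values had been seen.

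The liver that was highest for Cyp4a14 among not-injected mice was also highest for Cyp4a31 and for the shared probe set. Among the 28 PPAR-alpha targets that liver was the highest of its group in 11, or 39.3%, beside 35.7% of all genes, and not-injected replicate 2 was highest in 14. In 11 of 11 measured Kupffer cell and macrophage markers not-injected replicate 1 was the highest of its group, and likewise in 7 of 9 sinusoidal endothelial markers. In bulk liver, more cells of a type and more RNA per cell cannot be told apart, and the part of either in the Cyp4a values was not tested.

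Of 18 measured genes of the receptor and its cofactors 5 rose, 2 fell and 11 did not pass. Among all genes 14.2% were higher and 13.9% lower. Over the alternatives 3 to 5 of the 18 were higher and 1 to 4 lower. Ppara itself read 10.62, 10.70 and 10.52 in injected livers, against 10.59, 10.57 and 10.59 in not-injected livers. The groups overlapped, and the difference was 0.03 ± 0.07 (adjusted p = 0.761). The coactivator gene Ppargc1a rose by 2.24 ± 0.15 (adjusted p = 0.000122), the related receptor Pparg by 1.42 ± 0.11 and the orphan receptor Esrra by 0.56 ± 0.08. Rxra, which encodes the partner that PPAR-alpha needs to bind DNA, fell by 0.32 ± 0.07 (adjusted p = 0.0107). That fall lay within the range of the spike-in controls.

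None of the 15 measured omega-oxidation partners passed as higher. These partners include proteins that supply electrons to P450 enzymes, and the alcohol and aldehyde dehydrogenases that turn the omega-hydroxyl group into an acid. Of them 0 rose, 5 fell and 10 did not pass (limma, beside 14.2% higher and 13.9% lower of all genes). An unadjusted p under 0.05, in either direction, was found in 7 of these 15. Among those 7 Alas1 was higher (0.44 ± 0.17, adjusted p = 0.0842) and the others were lower. The share of all genes under that unadjusted threshold was not computed, so this count has no baseline. Across 15 alternatives 0 to 1 passed higher and 2 to 6 lower. The alcohol dehydrogenase Adh4, which acts on omega-hydroxy fatty acids, fell by 0.99 ± 0.07 (adjusted p = 0.00022), the aldehyde dehydrogenase Aldh1a1 by 0.69 ± 0.11, the outer mitochondrial cytochrome Cyb5b by 0.62 ± 0.15 and Aldh9a1 by 0.19 ± 0.06. Aldh3a2, the fatty aldehyde dehydrogenase, had means of 10.67 in injected and 10.27 in not-injected livers and did not pass (0.40 ± 0.20, adjusted p = 0.176). Por, the electron donor of microsomal P450 enzymes, was not analysed here.

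In the peroxisomal oxidation of dicarboxylic acids 2 of 19 measured genes rose, 2 fell and 15 did not pass, with a median of 0.07. These shares are close to those of all genes, 14.2% higher and 13.9% lower, and the count of risers ran from 0 to 5 over the alternatives. The thiolase Acaa1a rose by 0.42 ± 0.08 (adjusted p = 0.0103) and Nudt19, a hydrolase of coenzyme A, by 0.23 ± 0.07. Abcd3, the transporter that carries long-chain and dicarboxylic acids into peroxisomes, fell by 0.50 ± 0.07 (adjusted p = 0.00246), and the peroxisomal coenzyme A hydrolase Nudt7 by 0.71 ± 0.16.

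Other enzymes of eicosanoids were counted beside the same shares of all genes, 14.2% higher and 13.9% lower. Another list held Cyp2c and Cyp2j genes with epoxide hydrolases, because several of them convert arachidonic acid to epoxides and then to diols. That activity is not established here for each member. Of 13 measured genes of this list 3 rose, 4 fell and 6 did not pass, with 1 to 7 lower over the alternatives. Cyp2j6 rose by 1.77 ± 0.16 and Cyp2j9 by 0.97 ± 0.07, while Cyp2c70 fell by 0.68 ± 0.10 and Cyp2c54 by 0.90 ± 0.20. Of 11 measured genes of leukotriene synthesis, inactivation and receptors 1 rose and 0 fell (0 to 2 higher over the alternatives). It was Ptgr1, a reductase that inactivates leukotriene B4 (0.60 ± 0.16, adjusted p = 0.031). Over the 53 measured P450 genes of other families 6 rose, 18 fell and 29 did not pass, with a median of -0.14.

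**Figure D4:**
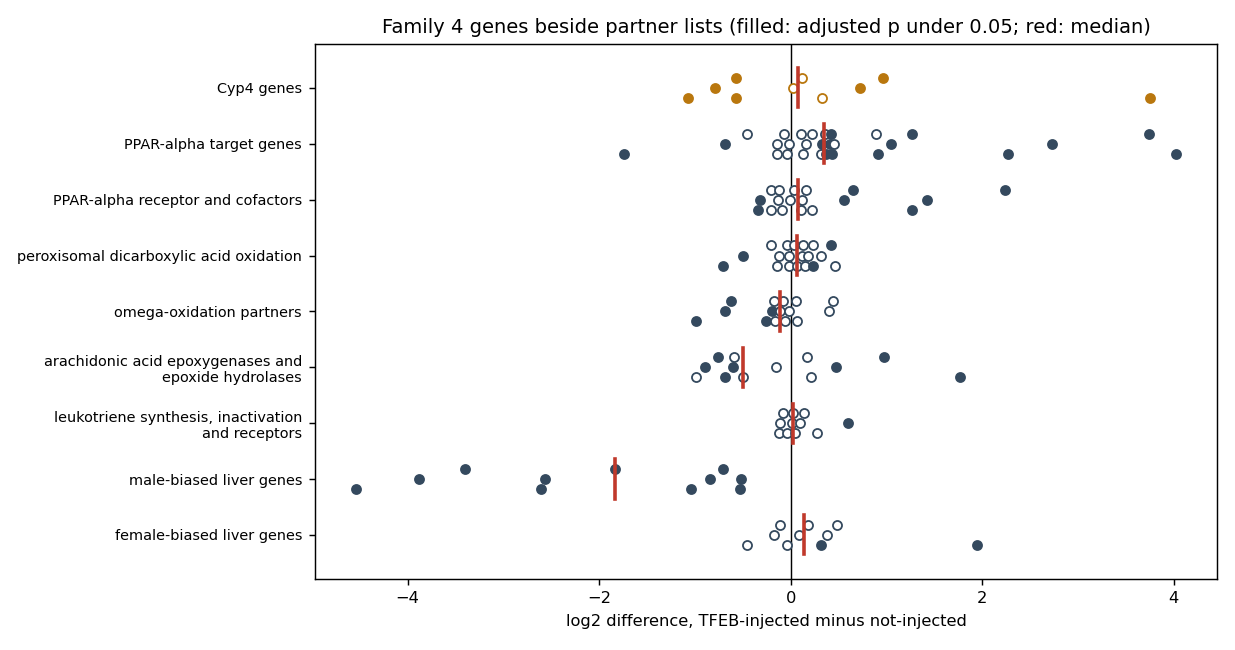
Log2 difference, TFEB-injected minus not-injected, of the family 4 genes (top, ochre) and of 8 lists of partner and comparison genes. Filled points passed limma at an adjusted p under 0.05, and red bars are medians. PPAR-alpha targets have a median of 0.34, omega-oxidation partners -0.11 and male-biased genes -1.84.

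Other genes known to be higher in male mouse liver fell, whereas Cyp4a12a did not pass, and the difference between it and them was not tested. All 11 measured male-biased genes of the list fell, with a median of -1.84, where 13.9% of all genes fell, and 6 of them passed without variance moderation. The list was written with earlier results of these data known, so its direction is not independent evidence. The steroid dehydrogenase Hsd3b5 read 7.08, 10.43 and 8.01 in injected livers, against 13.04, 13.04 and 13.08 in not-injected livers. The fatty acid elongase Elovl3 read 8.57, 10.84 and 10.12 in injected livers, against 13.26, 13.22 and 13.26 in not-injected livers. Hsd3b5 was singled out after its values had been seen. In both genes every injected liver was lower, while the values of Cyp4a12a overlapped. By the rule for named genes, the adipokine gene Serpina12 differed by -3.88 ± 0.41, the glucuronosyltransferase Ugt2b38 by -1.84 ± 0.25 and the complement component C8a by -1.04 ± 0.16, and Elovl3 averaged 9.85 in injected and 13.24 in not-injected livers (adjusted p = 0.00293). Of 10 measured female-biased genes 2 rose, 0 fell and 8 did not pass, where 14.2% of all genes were higher. The flavin monooxygenase Fmo2 rose by 1.95 ± 0.26 and Cyp3a44 by 0.32 ± 0.06. The Y-linked Eif2s3y read 10.39 to 10.55 in injected and 10.55 to 10.70 in not-injected livers, and Xist, which is expressed from the inactive X chromosome, read 6.16 to 6.24 in injected and 6.30 to 6.40 in not-injected livers. Among 4 measured sex chromosome genes the Y-linked Uty rose by 0.31 ± 0.07 (adjusted p = 0.0169).

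Hepatocyte markers marked the tissue, with Alb, which encodes albumin, at 15.06 in both groups. Of 10 measured hepatocyte markers 1 rose, Apob (0.29 ± 0.07), and 1 fell, Tat (-1.45 ± 0.10). Markers of other cells are given beside the 14.2% higher and 13.9% lower of all genes. Of 9 sinusoidal endothelial markers 5 rose and 0 fell, led by Lyve1 (2.10 ± 0.15), and of 11 Kupffer cell and macrophage markers 2 rose and 2 fell, with Cd163 (-3.62 ± 0.24) among those that fell. The log2 of the summed level of the endothelial list was 12.72 to 12.96 in injected and 12.19 to 12.40 in not-injected livers, and that of the Kupffer cell list 13.49 to 13.71 in injected and 13.20 to 13.58 in not-injected livers. Of 10 stellate cell and fibroblast markers 0 rose and 1 fell, Reln (-0.38 ± 0.11). None of 5 cholangiocyte and none of 8 T and B cell markers passed, and of 6 kidney and lung markers 1 fell, Umod, from a level below the lower quartile (3.54 in injected and 3.82 in not-injected livers). The part of cell composition in the family's values was not tested.

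Genes with a profile like those of the family were sought over the 6 arrays, as the smallest root mean square difference between log2 values taken relative to the not-injected mean. Closest to Cyp4a14 were Cd36 (0.70, difference 3.74), Cox7a1, a subunit of cytochrome c oxidase (0.70, difference 3.44), and Haus8, a subunit of the augmin complex of the spindle (0.78, difference 3.53). Closest to Cyp4f14 were the amino acid transporter Slc6a13 (0.06, difference -1.04), Nlrp6 (0.06, difference -1.07) and Fpgs, the synthase of folate polyglutamates (0.07, difference -1.02). Closest to Cyp4f13 were Anp32e (0.03, difference -0.79), the kynurenine hydroxylase Kmo (0.04, difference -0.80) and the amidase Nit2 (0.04, difference -0.84). Likeness over so few arrays in 2 groups mostly follows the size of the difference between them.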

How the data were processed

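Livers of 3 TFEB-injected and 3 not-injected mice were measured on Affymetrix arrays, 1 per liver. The deposited values are log2 levels per probe set, and per the submitters' processing notes the authors used affy and RMA, with no version. The genome build and any filters are not given in the sources used here. Of 22690 probe sets, 64 were controls, 20380 had 1 gene symbol, 691 several and 1555 none. Gene identifiers of 12369 of 12393 genes were found in RefSeq's table (GRCm38.p6), with 0 symbols changed.

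Where a gene had several probe sets, the one brightest on average across all arrays stood for it. Groups were compared with limma 3.58.1 (R 4.3.3, lmFit and eBayes), two-sided, with no covariate and no filter, and p-values were adjusted by Benjamini-Hochberg over all 12393 genes or, for single probe sets, over 20380. A ± is the standard error of that fit, and 95% intervals use its moderated degrees of freedom. The labels call the arrays biological replicates, and their number limits the precision. In simulated data with 200 changed genes among 12393, the fit called 51% of log2 changes of 0.5 and 87% of log2 changes of 1, and 5.48% of its calls were unchanged genes.

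The members and gene lists were chosen with earlier results of these data known. Every family gene was named, then from each partner list the called genes of smallest p (at most 4), from each cell type list at most 1, and Ppara and Ppargc1a in any case; Apob, Acot1, Ehhadh, Aldh3a2 and Hsd3b5 were added after their values were seen. The lists covered PPAR-alpha targets and cofactors, omega-oxidation partners, peroxisomal oxidation, eicosanoid enzymes, sex-biased and sex chromosome genes and cell type markers. Alternatives were a replicate block, other variance moderation, a level filter, other choices of probe set, renormalisation, centring, array weights and leaving out each array. Motifs and alignments used Python 3.11.15 and Biopython 1.88, and plots matplotlib 3.10.9.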

Additional observations from a re-analysis of the deposited data

Results flagged for a closer look

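The family's 2 probe sets with several symbols enter no gene of the main comparison, yet both differed between the groups without overlap. The probe set annotated to Cyp4a31 and Cyp4a10 differed by 2.74 on the log2 scale, with means of 12.71 ± 0.18 in injected and 9.96 ± 0.56 in not-injected livers (SD, n = 3 each). The probe set annotated to Cyp4f37 and Cyp4f16 differed by 1.01, with means of 6.17 ± 0.47 in injected and 5.16 ± 0.09 in not-injected livers (SD, n = 3 each). A two-sided exact permutation test gave p = 0.1 for each, the smallest that 20 assignments can give.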

How the results depend on the processing

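Each of Cyp4a14, Cyp4f13, Cyp4f14, Cyp4f15 and Cyp4v3 kept its direction and its call under all 15 alternatives, and Cyp4f16 under the 14 that tested it. The ranges were 3.27 to 4.36 for Cyp4a14, -1.14 to -1.01 for Cyp4f14, -0.88 to -0.74 for Cyp4f13, -0.63 to -0.48 for Cyp4f15, -0.77 to -0.49 for Cyp4v3 and 0.49 to 0.79 for Cyp4f16. Cyp4a31 kept its direction but not its call without variance moderation (adjusted p = 0.0719). Only 1 family gene was called higher once genes under the median level were dropped, since that filter leaves out Cyp4a31 and Cyp4f16. Leaving out each array gave 7 to 8 called family genes, 3 to 4 higher and 4 lower, and 8 to 9 called probe sets.

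Cyp4a12a, which never passed, turned negative after a second quantile normalisation (-0.0076), after centring (-0.044, or -0.0014 when its probe set was centred among all probe sets), with array weights (-0.077, or -0.074 among all probe sets), without injected replicate 2 (-0.085) and without not-injected replicate 1 (-0.043); leaving out each array gave -0.085 to 0.15. The probe set shared by Cyp4a31 and Cyp4a10 ran from 2.51 to 3.05 and kept its call under all 10 added settings. The probe set shared by Cyp4f37 and Cyp4f16 lost its call without variance moderation (adjusted p = 0.0934).

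Over all genes 3486 were called, 1765 higher and 1721 lower. Without variance moderation there were 1881, 919 higher and 962 lower. Leaving out each array gave 1973 to 4378, with 1036 to 2149 higher and 936 to 2229 lower. The counts fell by over 1.5 times without injected replicate 1 (2103), not-injected replicate 2 (1973) and not-injected replicate 3 (2032), and for lower genes without injected replicate 3 (1078). Centring moved the split to 1435 higher and 2554 lower. The replicate number as a replicate block gave 3348 calls, the same 7 family calls and 8 called probe sets. Same-numbered livers correlated at 0.011 to 0.14 in their deviations from the group means, and 4 of 6 correlated best with their own number, and since not every pair exceeded 0.1 the numbers were not taken to pair the livers. Among the lists, leaving out single arrays moved several counts by over 1.5 times. Omega-oxidation partners called lower were 3 without injected replicate 1 or not-injected replicate 3, and 2 without injected replicate 3 or not-injected replicate 1 or 2. Kupffer cell markers called higher were 5 without not-injected replicate 1 and 1 without not-injected replicate 2, against 2, and those called lower were 1 when any single array other than injected replicate 2 was left out, against 2. Endothelial markers called higher were 3 without injected replicate 1 or not-injected replicate 2 or 3, against 5. Cholangiocyte markers called higher were 3 and stellate cell markers 5 without injected replicate 2, against 0 for each. The lower call of Reln, the 1 stellate marker that fell, was lost under the replicate block, without variance moderation and without injected replicate 2 or 3 or not-injected replicate 2 or 3. The higher call of S100a8 was lost without each not-injected replicate, without variance moderation and after centring. Neutrophil markers called higher were also 0 with genes under the median level dropped, and without probe sets of shared probes. Male-biased genes called lower stayed within 1.5 times of 11 except without variance moderation (6). The cause of these changes was not tested.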
